A study of Mus musculus with 8 samples.

Results

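Cadherins and regulators of the epithelial-mesenchymal state were followed in 10 genes, taken by name from a table of 50600 gene rows. They were the cadherins *Cdh1*, *Cdh2* and *Cdh3*, the epithelial adhesion gene *Epcam*, the intermediate filament gene *Vim*, and the transcription factor genes *Snai1*, *Snai2*, *Zeb1*, *Zeb2* and *Twist1*. All 10 had a row, and 6 of them (*Cdh1*, *Cdh2*, *Cdh3*, *Epcam*, *Vim* and *Zeb1*) averaged 5 or more across the 8 libraries, the filter for testing. The other 4 are given by their values.

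The libraries came from OG2 mouse embryonic stem cells of the genotype c-Jun_TetOn_mESC (JUN TetON ESCs), in which doxycycline switches on a *Jun* transgene. All 8 received 2 µg/ml doxycycline, so the DMSO libraries were induced as well and no library of uninduced cells was in this table. The groups were DMSO (the solvent), PFI-3 (an inhibitor of the bromodomain of BRG1), BI-9564 (an inhibitor of the bromodomains of BRD7 and BRD9) and P+B (both compounds), with 2 libraries each. A bromodomain is the module with which chromatin proteins bind acetylated histones, and the question was what blocking it in BAF chromatin remodelling complexes does to transcription while JUN is on. The cells were of a mixed strain background (1/2 129SVJ, 3/8 C57B6 and 1/8 of CBA), were at passage P12 and grew without feeders in 2i medium with serum and LIF. The labels give 6 h for every treatment, which the study describes as the time with compound within a longer induction, and no dose of either compound, and do not say whether the libraries of a group came from separate cultures, so p-values measure only the spread between these samples, which may be technical.

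Cadherins are calcium-dependent adhesion proteins that join like cells, and E-cadherin, the product of *Cdh1*, holds mouse ES cells in compact colonies. In an epithelial-mesenchymal transition, transcription factors of the SNAI, ZEB and TWIST families repress *Cdh1* and other epithelial genes, while N-cadherin (*Cdh2*) and vimentin (*Vim*) commonly increase. SNAI and ZEB proteins bind a short sequence named the E-box, and JUN binds the AP-1 site as part of a dimer.

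Values were TPM (a transcript abundance scaled to transcript length and to the library total) that the authors had made whole numbers, so levels can be compared between genes as well as between libraries, and a low gene moves in coarse steps. TPM keeps no depth, so the counting error of a value is unknown. The libraries summed to between 991574 and 991897, and between 10285 and 10451 genes reached a value of 5. Pluripotency markers were present, with a summed level over 12 genes of 4113 to 5346 in DMSO, 4597 to 5648 in PFI-3, 3643 to 4743 in BI-9564 and 3838 to 4896 in P+B. Among 12 fibroblast markers 8, *Col1a2*, *Dcn*, *Pdgfra* and *Prrx1* among them, were at 0 in all libraries, and the summed level of the list did not pass 5 in any library. Of 10 primitive endoderm markers 6, *Sox7* and *Foxa2* among them, were at 0 throughout, and the sums lay between 3 and 10. Of 8 mesoderm markers 4, *Mesp1* among them, were at 0 in all libraries. The sums were 4 and 8 in DMSO, 8 and 8 in PFI-3, 6 and 10 in BI-9564, and 10 and 12 in P+B.

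*Jun*, the induced gene, had TPM values of 1970 and 2877 in DMSO, 1570 and 2227 in PFI-3, 2071 and 3011 in BI-9564, and 1569 and 2159 in P+B. The groups overlapped, and replicate 2 was the higher library in all 4. Transcripts of the transgene and of the cells' own gene cannot be told apart in these values. The log2 difference of P+B from DMSO was -0.37 (adjusted p = 0.437). Within each replicate number *Jun* was lower in P+B than in DMSO, and with replicate number as a block the adjusted p was 0.00156 at a fold below 1.5 (0.00635 for the difference of -0.44 from BI-9564). PFI-3 alone lay below DMSO by a like amount (-0.35, adjusted p = 0.876, and 0.116 with the block). P+B differed from PFI-3 by -0.02, and BI-9564 differed from PFI-3 by 0.42 (adjusted p = 0.00961 with the block, at a fold below 1.5). Any part of the *Jun* level in the differences below was not tested.

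On the TPM scale the members spanned a wide range of levels. *Vim* lay between 359 and 650 and *Cdh1* between 322 and 488 over the 8 libraries, far above every other member. *Epcam* lay between 45 and 67, *Cdh3* between 18 and 37, *Cdh2* between 8 and 13 and *Zeb1* between 5 and 12. The remaining regulators were close to the smallest value the table can show, with *Twist1* between 2 and 6, *Snai1* between 2 and 4, *Zeb2* between 0 and 2 and *Snai2* between 0 and 1. The plot of values by library gives each member on its own axis.

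**Figure D1:**
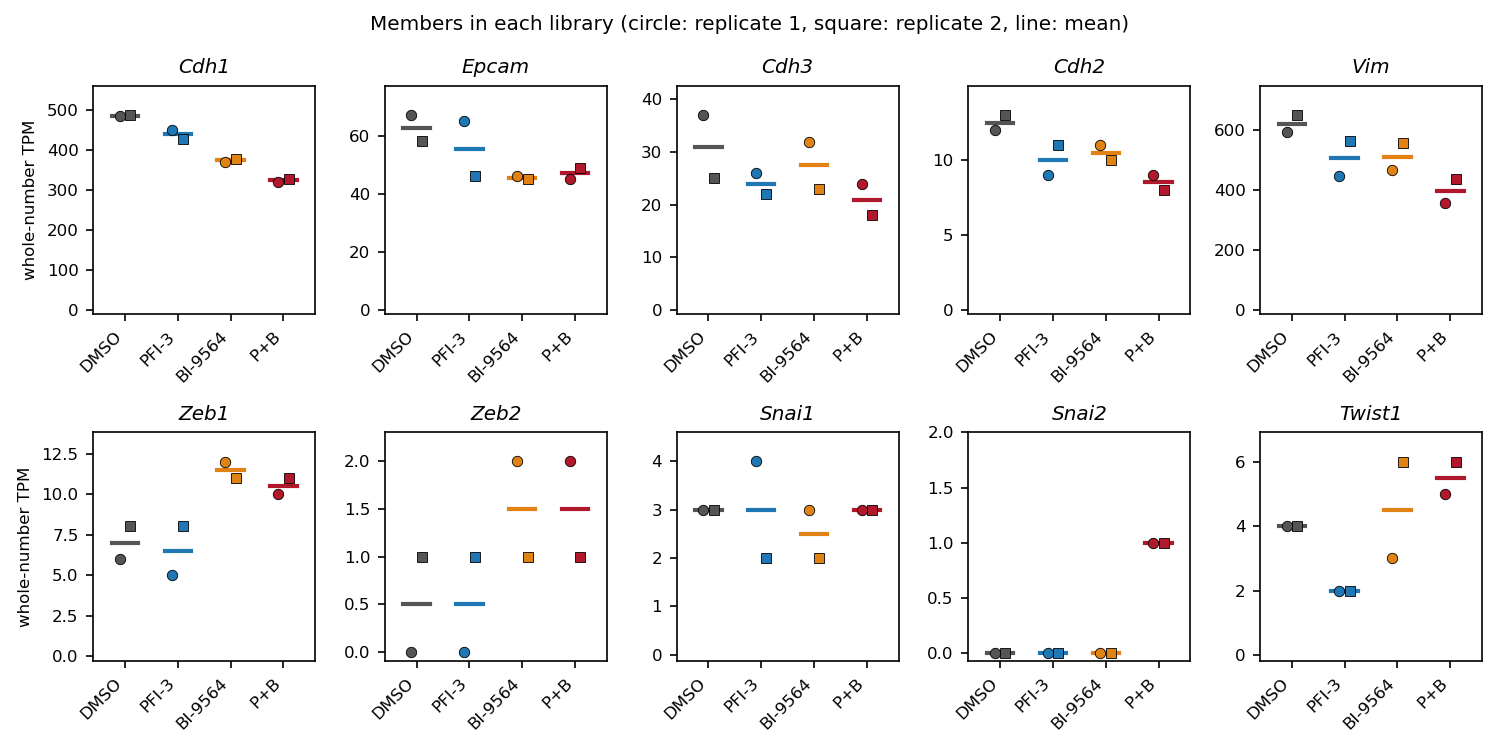
Whole-number TPM (y axis, from 0, a separate scale in each panel) of the 10 members by treatment (x axis), with a circle for replicate 1, a square for replicate 2 and a line for the mean. The *Cdh1* values step down from 485 and 488 in DMSO to 322 and 329 in P+B with no overlap of groups, and *Snai2* is listed at 0 outside P+B.

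In the annotation of the mouse genome (GENCODE M21, build GRCm38), *Cdh1* and *Cdh3* are neighbours on one strand of chromosome 8. *Cdh3* spans chr8:106510891-106557297 and *Cdh1* spans chr8:106603351-106670246, with 46053 bases and 1 other protein-coding gene between them. *Epcam* lies at chr17:87635979-87651129, *Vim* at chr2:13573927-13582826, *Snai1* at chr2:167538195-167542814, *Snai2* at chr16:14705852-14709385 and *Twist1* at chr12:33957671-33959829. *Cdh2*, *Zeb1* and *Zeb2* overlap annotated transcripts of the other strand, among them *Gm15485*, *Gm10125* and *Zeb2os*. Whether the authors' counting used strand is not given in the sources used here, so reads of those 3 genes and of their antisense partners may not be told apart.

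Promoters of 5 of the 10 members were in a RefSeq table of build GRCm38.p6 (*Epcam*, *Snai1*, *Twist1*, *Vim* and *Zeb2*, with 8 start sites). *Cdh1*, *Cdh2*, *Cdh3*, *Snai2* and *Zeb1* were not matched. The 250 bases before each start were searched on both strands for the E-box, CAGGTG or its reverse complement CACCTG, and for the AP-1 site, TGANTCA, where N is any base. The E-box letters occurred in 17.2% of all 32851 promoter windows of this length and the AP-1 letters in 6.75%. *Epcam* held 2 E-box matches, with their first bases 187 and 19 bases before the start, and *Snai1* held 1, at 126 bases. At 1 start of *Zeb2* there were 2 AP-1 matches, at 189 and 132 bases before it, and the windows of *Vim* and *Twist1* held neither motif. That *Zeb2* start, at chr2:45110277, lies inside the gene as annotated (start 45117395, minus strand), and the other *Zeb2* starts held neither motif. The *Vim* start, at chr2:13574311, also lies inside its annotated gene (start 13573927). The 2 windows with E-box letters, Epcam at chr17:87635729-87635978 (plus strand) and Snai1 at chr2:167537945-167538194 (plus strand), are printed to show where the letters that SNAI and ZEB proteins bind stand relative to the start, with the E-box in capitals. A match describes the letters and is not a measured binding site.
Epcam: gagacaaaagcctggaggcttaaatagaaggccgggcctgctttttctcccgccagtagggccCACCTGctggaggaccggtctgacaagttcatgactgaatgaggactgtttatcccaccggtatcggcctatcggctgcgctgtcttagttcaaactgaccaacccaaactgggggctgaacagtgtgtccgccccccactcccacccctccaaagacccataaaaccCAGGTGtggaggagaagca
Snai1: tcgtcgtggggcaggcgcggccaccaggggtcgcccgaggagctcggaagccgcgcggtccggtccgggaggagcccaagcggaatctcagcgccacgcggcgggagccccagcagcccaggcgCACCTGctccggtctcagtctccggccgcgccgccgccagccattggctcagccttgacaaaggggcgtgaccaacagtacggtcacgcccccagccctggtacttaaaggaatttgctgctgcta

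P+B lay furthest from DMSO for 4 of the 6 tested members (*Cdh1*, *Cdh2*, *Cdh3* and *Vim*), and BI-9564 for *Epcam* and *Zeb1*. In P+B 1 of the 6 tested members, *Vim*, was called lower, which took an adjusted p below 0.05 together with a change of 1.5-fold or more, and none was called higher. Across all genes 4.0% of the 10222 tested were called in this comparison (409, of which 131 were higher and 278 lower, and 719 with replicate number as a block). With the fold threshold left out, *Cdh1* passed as well, so 2 of 6 members did, against 4.89% of all genes. The median log2 difference of the 6 members was -0.52, beside 0.06 over all tested genes, with 5 members below 0 and *Zeb1* above it. Of all tested genes 41.7% lay below 0.

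*Cdh1* had TPM values of 485 and 488 in DMSO, 452 and 429 in PFI-3, 371 and 379 in BI-9564, and 322 and 329 in P+B. The means were 486.5 ± 2.12, 440.5 ± 16.3, 375 ± 5.66 and 325.5 ± 4.95 (SD, n = 2). No group overlapped another, and the order from highest to lowest was DMSO, PFI-3, BI-9564, P+B. In P+B the log2 difference from DMSO was -0.58 (SE 0.067, 95% interval -0.73 to -0.43, adjusted p = 0.00349 by limma). That is a level of 0.670 times DMSO, just short of the fold of 1.5, so *Cdh1* was not counted as called.

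The single steps of *Cdh1* were smaller than those the test could call. PFI-3 differed from DMSO by -0.14 (adjusted p = 0.765), BI-9564 from PFI-3 by -0.23 (adjusted p = 0.212) and P+B from BI-9564 by -0.20 (adjusted p = 0.487), all on the log2 scale. BI-9564 differed from DMSO by -0.37 (SE 0.067, adjusted p = 0.0799). P+B differed from PFI-3 by -0.43 with an adjusted p of 0.0240, again below the fold of 1.5, and here 1.43% of all genes passed the adjusted p at any fold. The adjusted p of *Cdh1* for P+B against DMSO stayed between 0.0119 and 0.0458 when each of the 8 libraries was left out in turn and was 0.100 when only the libraries compared were fitted. For P+B against PFI-3 it rose to between 0.0579 and 0.167 when any 1 library was left out.

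*Vim*, which encodes the intermediate filament protein vimentin, was the other abundant member and was lower in P+B. Its TPM values were 594 and 650 in DMSO, 448 and 565 in PFI-3, 468 and 556 in BI-9564, and 359 and 438 in P+B. Both P+B libraries lay below all others, the PFI-3 and BI-9564 libraries lay between them and DMSO, and replicate 2 was the higher library in every group. In P+B *Vim* fell by 0.65 on the log2 scale (SE 0.142, adjusted p = 0.0428), to 0.639 times its DMSO level. This call was lost when any 1 of the 8 libraries was left out (adjusted p 0.0575 to 0.200, log2 difference -0.79 to -0.50), and with replicate number as a block the adjusted p was 0.00104.

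Against the single compounds *Vim* was also lower in P+B, but without a call. The log2 difference was -0.34 from PFI-3 (95% interval -0.67 to -0.02, adjusted p = 0.283) and -0.36 from BI-9564 (95% interval -0.69 to -0.04, adjusted p = 0.563). PFI-3 differed from DMSO by -0.30 (adjusted p = 0.765) and BI-9564 by -0.28 (adjusted p = 0.392). Between the single compounds *Vim* differed by 0.02, with an interval of -0.31 to 0.35, so these libraries leave room for a difference either way.

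**Figure D2:**
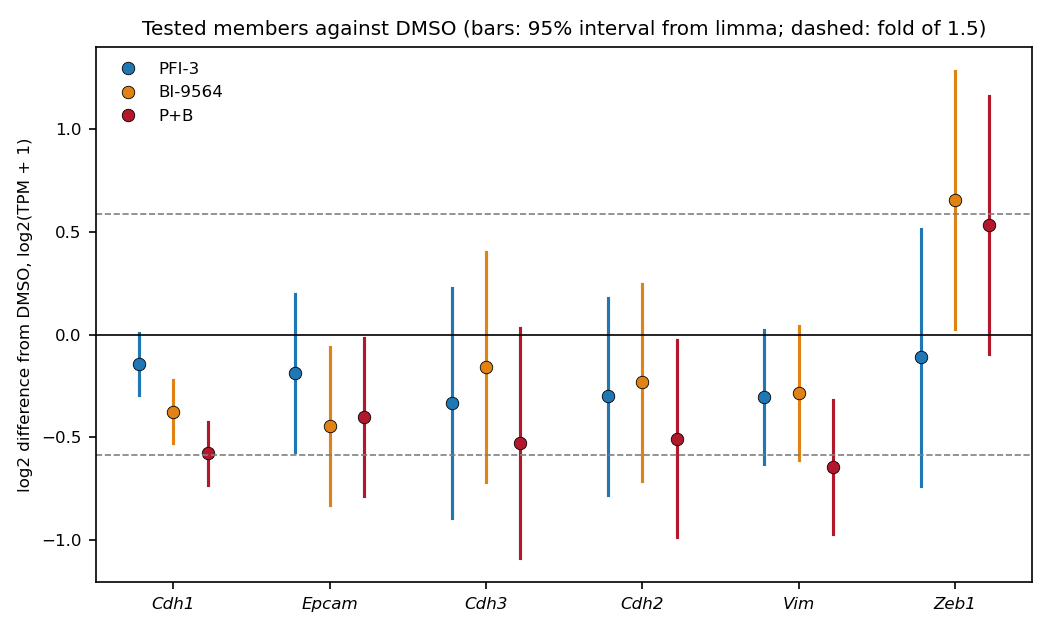
Log2 difference from DMSO (y axis, on log2(TPM + 1)) of the 6 tested members (x axis) for PFI-3, BI-9564 and P+B, with bars for the 95% interval from limma and dashed lines at a fold change of 1.5. *Cdh1* (-0.58) and *Vim* (-0.65) have the P+B intervals whose upper ends lie furthest below 0. *Zeb1* is the member with points above 0 in BI-9564 (0.65) and P+B (0.53).

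The epithelial members *Epcam* and *Cdh3* were lower in P+B on average but did not pass the test. *Epcam*, an adhesion protein of epithelial and pluripotent cells, had TPM values of 67 and 58 in DMSO, 65 and 46 in PFI-3, 46 and 45 in BI-9564, and 45 and 49 in P+B. The BI-9564 and P+B libraries lay below both DMSO libraries, and the PFI-3 libraries reached into both ranges. The log2 difference from DMSO was -0.45 in BI-9564 (adjusted p = 0.282) and -0.40 in P+B (adjusted p = 0.204).

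*Cdh3* encodes P-cadherin. Its TPM values were 37 and 25 in DMSO, 26 and 22 in PFI-3, 32 and 23 in BI-9564, and 24 and 18 in P+B. Replicate 1 was the higher library in all 4 groups, and both P+B values lay below both DMSO values. The log2 difference of P+B from DMSO was -0.53 (SE 0.244, adjusted p = 0.247), and with replicate number as a block the adjusted p was 0.0445, at a fold below 1.5. The difference was -0.25 without DMSO replicate 1 and -0.80 without DMSO replicate 2. PFI-3 differed from DMSO by -0.33 and BI-9564 by -0.16, with adjusted p-values of 0.876 and 0.805.

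*Cdh2*, the gene of N-cadherin, did not pass the test in any comparison. Its TPM values were 12 and 13 in DMSO, 9 and 11 in PFI-3, 11 and 10 in BI-9564, and 9 and 8 in P+B. All 6 libraries with a compound lay below both DMSO libraries, by a few units of a coarse scale. The log2 difference of P+B from DMSO was -0.51 (95% interval -0.99 to -0.03, adjusted p = 0.201), a difference that log2(value + 1) understates for so low a gene.

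Ratios of *Cdh1* to the other adhesion members and to *Vim* were taken within each library. *Cdh1* to *Vim* was 0.816 and 0.751 in DMSO, 1.01 and 0.759 in PFI-3, 0.793 and 0.682 in BI-9564, and 0.897 and 0.751 in P+B. *Cdh1* to *Cdh2* was 40.4 and 37.5 in DMSO, 50.2 and 39.0 in PFI-3, 33.7 and 37.9 in BI-9564, and 35.8 and 41.1 in P+B. The P+B values of both ratios overlapped those of DMSO. *Cdh1* to *Cdh3* was 13.1 and 19.5 in DMSO and 13.4 and 18.3 in P+B, which overlapped as well. *Cdh1* to *Epcam* was 7.24 and 8.41 in DMSO, 6.95 and 9.33 in PFI-3, 8.07 and 8.42 in BI-9564, and 7.16 and 6.71 in P+B. For this ratio both P+B values lay just below both DMSO values, and no ratio was tested. A ratio says how unequal the changes were and not that either gene was unchanged.

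**Figure D3:**
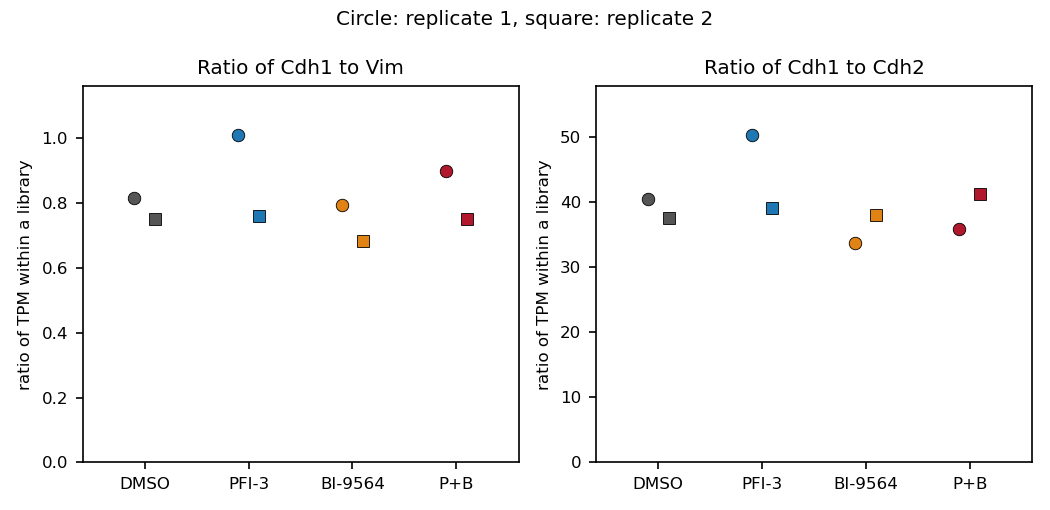
Ratio of *Cdh1* to *Vim* (left) and of *Cdh1* to *Cdh2* (right) within each library (y axis, from 0) by treatment (x axis), with a circle for replicate 1 and a square for replicate 2. The P+B points (0.897 and 0.751 on the left, 35.8 and 41.1 on the right) overlap those of DMSO in both panels.

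*Zeb1*, a repressor of *Cdh1* in many epithelia, was the tested member that lay higher where BI-9564 was present. Its TPM values were 6 and 8 in DMSO, 5 and 8 in PFI-3, 12 and 11 in BI-9564, and 10 and 11 in P+B. The 4 libraries with BI-9564 lay above the 4 without it. The log2 difference from DMSO was 0.65 in BI-9564 (95% interval 0.03 to 1.28, adjusted p = 0.322) and 0.53 in P+B (adjusted p = 0.294), and the BI-9564 libraries differed from PFI-3 by 0.77 (adjusted p = 0.284). None of these passed the test, so the separation is a description of 8 libraries.

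The 4 regulators under the filter stayed near the bottom of the scale. *Snai1* had TPM values of 3 and 3 in DMSO, 4 and 2 in PFI-3, 3 and 2 in BI-9564, and 3 and 3 in P+B, so all groups overlapped. *Twist1* had 4 and 4 in DMSO, 2 and 2 in PFI-3, 3 and 6 in BI-9564, and 5 and 6 in P+B. Its P+B libraries lay above those of DMSO and PFI-3, and with a filter of a mean of 1 the log2 difference was 0.37 from DMSO (adjusted p = 0.585) and 1.11 from PFI-3 (adjusted p = 0.202).

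*Zeb2* was listed at 0 and 1 in DMSO, 0 and 1 in PFI-3, 2 and 1 in BI-9564, and 2 and 1 in P+B. *Snai2*, which encodes SLUG, was listed at 0 in the 6 libraries of the other groups and at 1 in both P+B libraries. A value of 1 is the smallest step in the table, the level it started from is unknown, and with no filter the adjusted p of *Snai2* was 0.0859. None of the 4 was called with the lower filter or with no filter, with or without replicate number as a block.

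The single compounds and the combination were also compared with each other for the tested members. With PFI-3 alone no member was called, and 0% of all genes were, with 694 at an unadjusted p under 0.05 and 0 calls with replicate number as a block. All 6 members had a log2 difference below 0 in PFI-3, between -0.33 (*Cdh3*) and -0.11 (*Zeb1*). Over all tested genes the median was 0.02 and 45.2% lay below 0. The 6 members were read from the same libraries, and *Epcam* and *Zeb1* could cross 0 when 1 library was left out. BI-9564 alone also gave no called member at a background of 0.108% (11 genes, 156 with the block). *Cdh1*, the member with the lowest adjusted p there, had one of 0.0251 with the block at a fold below 1.5.

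P+B against PFI-3 called 0 of 6 members and 1.31% of all genes (134, and 351 with the block), and P+B against BI-9564 called 0 members and 0.196% of genes (20, and 82 with the block). With the block the adjusted p of *Vim* was 0.0214 and 0.0460 in these comparisons, at folds below 1.5. BI-9564 against PFI-3 called 0 members and 0.108% of genes (11, and 151 with the block). The comparisons with DMSO share its 2 libraries, so they are not independent of each other.

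Departure of P+B from the added effects of both compounds was tested as an interaction. The interaction was -0.06 for *Cdh1* (95% interval -0.28 to 0.16), -0.06 for *Vim* (-0.52 to 0.40), 0.02 for *Cdh2*, -0.03 for *Cdh3*, 0.23 for *Epcam* and -0.01 for *Zeb1*, on the log2 scale. No member passed, and 0% of all genes did (limma, 333 at an unadjusted p under 0.05, and 0 with the block), with an adjusted p of 1 for each member. The *Cdh1* interval holds a departure of the size of its PFI-3 difference (-0.14) but not one of the size of its BI-9564 difference (-0.37). A permutation test of 1 member on 2 libraries against 2 cannot go below p = 0.333 (exact, two-sided), so no such test was used.

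Partners of the members were described from gene lists, with P+B against DMSO as the comparison. In bulk libraries fewer cells of a type and less RNA per cell cannot be told apart, which applies to every level given here. Over all genes 4.0% of the 10222 tested were called in this comparison, 131 higher and 278 lower. The junction list held 20 genes of the cadherin-catenin complex, of which 19 were tested and 0 were called (median log2 difference 0.09). The largest differences were those of *Ctnnbip1*, an inhibitor of the β-catenin-TCF interaction (0.91, adjusted p = 0.201), *Arvcf*, a catenin of the p120 family (0.58, adjusted p = 0.193), and *Nectin2*, an immunoglobulin-like adhesion molecule (-0.49, adjusted p = 0.0466, below the fold of 1.5). α-catenin (*Ctnna1*), which links the complex to actin and was picked after its values were seen, had TPM values of 378 and 347 in DMSO and 277 and 283 in P+B, with an adjusted p of 0.0409 at a log2 difference of -0.37. β-catenin (*Ctnnb1*), picked in the same way, lay higher, with 446 and 424 in DMSO and 509 and 507 in P+B (0.22, adjusted p = 0.101). Of the 19 tested genes 11 lay above 0 and 8 below it.

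Of 30 other members of the cadherin superfamily, 17 were at 0 in all libraries and 7 were tested. Of the 7, 6 lay above 0, *Celsr2* among them (median log2 difference 0.37). *Dsg2*, a desmosomal cadherin, lay below it (-0.37, adjusted p = 0.219). Of all tested genes 41.7% lay below 0. 1 of the 7, *Fat1*, an atypical cadherin, was called higher, beside 4.0% of all tested genes called. Its TPM values were 63 and 66 in DMSO, 62 and 50 in PFI-3, 102 and 105 in BI-9564, and 94 and 101 in P+B. As with *Zeb1*, the 4 libraries with BI-9564 lay above the 4 without it, without overlap. The log2 difference of P+B from DMSO was 0.59 (adjusted p = 0.0348), at the edge of the fold of 1.5, and the call was lost with any DMSO, BI-9564 or P+B library left out (adjusted p up to 0.182) and with libraries centred on their medians (0.49). *Celsr2* (1.29, adjusted p = 0.0544) and *Celsr1* (0.58, adjusted p = 0.253), which act in planar cell polarity, did not pass, and *Celsr2* was called with replicate number as a block (adjusted p = 0.0355). *Celsr2* had TPM values of 2 and 3 in DMSO, 5 and 4 in PFI-3, 8 and 8 in BI-9564, and 7 and 8 in P+B. It passed the filter of a mean of 5 only through the BI-9564 and P+B libraries. The filter thus favours a higher value in P+B, and no conclusion is drawn from its block call.

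Genes of the epithelial state counted 28, of which 19 were tested, 3 were called lower and 0 higher (median log2 difference -0.37, 14 below 0, and 5 called lower with the block). Of all tested genes 4.0% were called and 41.7% lay below 0. *Dsp*, which encodes the desmosomal linker desmoplakin, had TPM values of 48 and 56 in DMSO, 31 and 39 in PFI-3, 27 and 32 in BI-9564, and 13 and 17 in P+B. It fell by 1.74 on the log2 scale (adjusted p = 0.00282), and the call held with each of the 8 libraries left out in turn. With only the DMSO and P+B libraries fitted, the calls of *Dsp* and of every other list gene described here were lost (adjusted p = 0.100 for *Dsp*). *Pkp3*, the desmosomal plakophilin 3, had 50 and 40 in DMSO and 17 and 15 in P+B, and fell by 1.43 (adjusted p = 0.00835). *St14*, the gene of the membrane protease matriptase, had 94 and 85 in DMSO and 54 and 36 in P+B, and fell by 1.003 on the log2 scale (adjusted p = 0.0401).

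The calls of *Pkp3* and *St14* were lost when single libraries were left out. That of *Pkp3* was lost without any 1 of the DMSO or P+B libraries (adjusted p 0.0509 to 0.0921) and that of *St14* without any 1 of the 8 libraries (adjusted p 0.0533 to 0.191).

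Intermediate filament genes beside *Vim* numbered 14, of which 8 were tested, 3 were called lower and 0 higher (median log2 difference -0.97). Of the 8, 5 lay below 0 and 3 above it, and 4.0% of all tested genes were called. Keratins 8 and 18 pair in the filaments of simple epithelia. *Krt18* had TPM values of 103 and 89 in DMSO, 66 and 51 in PFI-3, 58 and 38 in BI-9564, and 27 and 20 in P+B, and fell by 1.996 on the log2 scale in P+B (adjusted p = 0.00349). Its partner *Krt8* had 163 and 114, 101 and 81, 97 and 69, and 53 and 30 in the same order of groups, and fell by 1.75 (adjusted p = 0.0155). For both keratins each group with a compound lay below both DMSO libraries, and P+B lay below the single compounds.

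*Lmna*, the gene of the nuclear lamins A and C, had 125 and 108 in DMSO and 45 and 37 in P+B and fell by 1.49 on the log2 scale (adjusted p = 0.00692). The other lamin genes of the list went both ways. *Lmnb1* differed by -0.45 (adjusted p = 0.0243, below the fold of 1.5) and *Lmnb2* by 0.37 (adjusted p = 0.0945). *Krt19* did not pass (-1.57, adjusted p = 0.0557), but was called with replicate number as a block (adjusted p = 0.0239) and without P+B replicate 1 (-2.21, adjusted p = 0.0257), and its difference was -0.94 at the other end of the range with 1 library left out. Leaving out a library ended the call of *Krt18* without DMSO replicate 1 or P+B replicate 2 (adjusted p up to 0.0572), and those of *Krt8* and *Lmna* without either DMSO library or P+B replicate 2 (adjusted p up to 0.118 and 0.0876). *Vim* and the epithelial keratins were lower in the same libraries, and whether *Vim* moved by less than the keratins was not tested.

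Mesenchymal genes were mostly below the filter. Of 22, 7 were at 0 in all libraries and 4 were tested. Beside 4.0% of all tested genes called, 1 of the 4 was called lower. That was *Snai3*, a SNAI family member, with TPM values of 16 and 16 in DMSO, 10 and 10 in PFI-3, 7 and 8 in BI-9564, and 5 and 5 in P+B. It fell by 1.5025 on the log2 scale in P+B (adjusted p = 0.00784), without overlap between any 2 groups, and the call was lost without either DMSO library or P+B replicate 2 (adjusted p up to 0.0681). *Mmp2* (-0.77, adjusted p = 0.0864) and *Tcf4* (0.42, adjusted p = 0.232) did not pass.

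The marker lists of cell types were read in the same way. Of the 12 pluripotency markers, all tested, 1 was called lower and 0 higher, beside 4.0% of all tested genes called. The median log2 difference was -0.12, with 5 markers above 0 and 7 below it. *Tdgf1*, a co-receptor of NODAL signalling, fell by 0.93 on the log2 scale (adjusted p = 0.00916), and its call was lost without any 1 of the DMSO or P+B libraries (adjusted p up to 0.0861). *Klf2* (1.03, adjusted p = 0.0568) and *Esrrb* (0.74, adjusted p = 0.120) lay higher without passing, and both were called with replicate number as a block (adjusted p = 0.00284 and 0.00486). *Eomes*, the tested mesoderm marker, had a log2 difference of 0.33 (adjusted p = 0.622). The single compounds moved the 12 pluripotency markers in opposite directions. In PFI-3 against DMSO 11 lay above 0 (median 0.42), and in BI-9564 against DMSO 10 lay below it (median -0.20). Of all tested genes 45.2% and 45.9% lay below 0 there. All 12 were lower in BI-9564 than in PFI-3 (median -0.64). In that comparison 1 was called beside 0.108% of all genes, and 7 with the block beside 151 of 10222. The part of these levels in the members' differences was not tested.

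**Figure D4:**
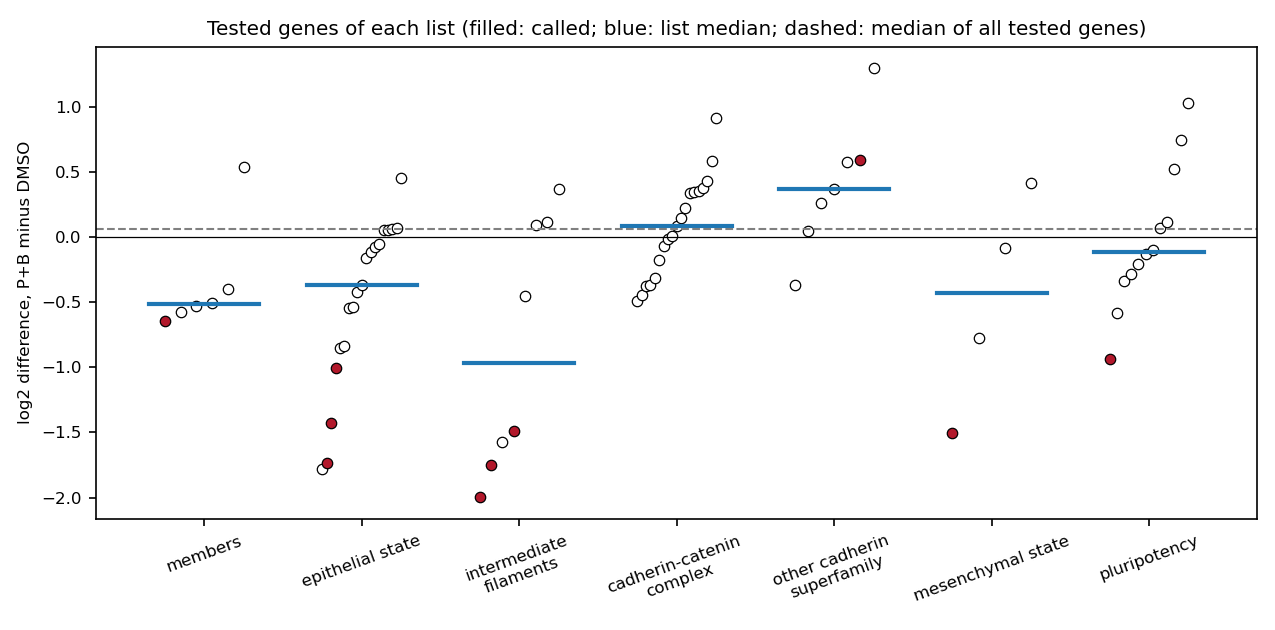
Log2 difference of P+B from DMSO (y axis, on log2(TPM + 1)) for each tested gene of the members and of 6 lists (x axis), with called genes filled, a blue bar for the list median and a dashed line for the median of all tested genes (0.06). The called genes lie below 0 except 1 of the cadherin superfamily, with *Krt18* (-1.996) the lowest.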

How the data were processed

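RNA-seq of 8 libraries was analysed, grouped by their labels into DMSO, PFI-3, BI-9564 and P+B with 2 each. The authors used a VAHTS mRNA-seq kit and a NextSeq500. Per the submitters' processing notes, bcl2fastq, Bowtie2 2.2.5, RSEM 1.3.0 and the build mm10 were used. The annotation and the handling of strand and of reads shared between genes are not given in the sources used here. The deposited values are scores, in that the authors turned TPM into whole numbers. All values were whole, whether by rounding or truncation is unknown, 33075 rows were at 0 throughout and 187 rows carried a repeated name. TPM keeps no depth, so no count model was run.

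A pseudocount of 1 was added to each value and log2 was taken. The test was limma 3.58.1, run under R 4.3.3 with lmFit, eBayes and a mean trend, two-sided. The 10222 genes averaging 5 or more were tested. All 8 libraries were fitted together with 4 residual degrees of freedom before moderation and no block. P-values were adjusted by Benjamini-Hochberg over all genes tested in a comparison. A call took an adjusted p below 0.05 together with a change of 1.5-fold or more. Intervals cover 95%.

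Only in the fits with a block were the replicate numbers of the labels taken to pair the libraries, and the main fit left this pairing out. The pairing was read from these same data, where deviations from group means correlated weakly between same-numbered libraries in all 6 pairs of groups (r 0.143 to 0.236). Nothing in the labels says what a number stands for. Tested on simulated data for P+B against DMSO over 10222 genes, the fit called 97 of 100 genes changed by 2 on the log2 scale, 63 of 100 changed by 1 and 7 of 10022 unchanged ones. The simulated errors were normal, had the fit's own spread and held no correlation by replicate number, so the error rate in the real data is not checked by it. Changes as small as those of the tested members were not simulated.

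The members and gene lists were chosen with earlier results of these data known, so their calls are descriptions of these libraries. From each list the text names up to 3 tested genes with the largest absolute log2 difference of P+B from DMSO. A gene that this rule picked is not reported here. *St14*, *Lmna*, *Lmnb1*, *Lmnb2*, *Dsg2*, *Ctnna1* and *Ctnnb1* were named after their values were seen. The 2 genes most like *Cdh1* and *Vim* were taken by Pearson correlation. Alternatives were the block, pseudocounts of 0.5 and 5, filters at 1, 20 and none, quantile normalization, median centring, no trend, only the libraries compared, other thresholds and leaving out each library. They were applied to the list genes by a choice made after seeing the data.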

Additional observations from a re-analysis of the deposited data

How the results depend on the processing

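For the members in P+B against DMSO the count of calls depended on the setting. It was 1 (*Vim*), and 0 with a filter at a mean of 1, with no filter, with quantile normalization, with no trend, with only the libraries compared and at an adjusted p under 0.01. It was 2 (*Cdh1* and *Vim*) with median centring and with no fold threshold, and 0 to 1 with 1 library left out, the 1 being *Cdh1* without P+B replicate 2. Where this left a group with 1 library, it was assumed to vary like the other groups. Without the fold threshold 1 member (*Cdh1*) passed in P+B against PFI-3, where its adjusted p was 0.0587 with no filter, 0.115 with no trend and 0.232 with only the libraries compared. *Vim* had adjusted p-values of 0.0674, 0.109, 0.0682, 0.100 and 0.152 with the first 5 of these settings. The filters changed the number of genes adjusted over, and fewer libraries gave fewer degrees of freedom. The standard error of *Vim* changed as well, from 0.142 to 0.147 with a filter at a mean of 1 and 0.156 with no filter. The cause of a lost call was not tested for any setting. With replicate number as a block, the paired fit, the count was 1 in P+B against DMSO and 0 in the other comparisons, and the block changed no other call of a member. Quantile normalization and median centring moved the median of all genes in P+B from 0.06 to 0.04 and -0.03.

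Of the members' differences, that of *Epcam* between P+B and BI-9564 was -0.00117 with median centring, against 0.04. With 1 library left out, small differences crossed 0. In PFI-3 against DMSO *Epcam* ranged from -0.43 to 0.0593 and *Zeb1* from -0.40 to 0.18, and in BI-9564 against DMSO *Cdh3* ranged from -0.43 to 0.11. In P+B against PFI-3 *Cdh3* ranged from -0.39 to 0.0046 and *Epcam* from -0.46 to 0.0291, and in P+B against BI-9564 *Epcam* ranged from -0.0155 to 0.10. In BI-9564 against PFI-3 the ranges were -0.0628 to 0.20 for *Cdh2*, -0.0543 to 0.41 for *Cdh3* and -0.15 to 0.19 for *Vim*. For the interaction they were -0.11 to 0.16 for *Cdh2*, -0.31 to 0.24 for *Cdh3*, -0.0147 to 0.48 for *Epcam*, -0.23 to 0.11 for *Vim* and -0.30 to 0.28 for *Zeb1*. *Eomes* in P+B against DMSO ranged from -0.0114 to 0.67. Depth is unknown, so what it limits cannot be stated, and members below a TPM of 5 move by whole steps.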

Other observations

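The genes whose pattern was most like that of *Cdh1* over the 8 libraries, among 10221 other tested genes on the log2(value + 1) scale, were *Ctnnd2*, a catenin of the p120 family found mainly in neurons (Pearson r = 0.993), and *Got1*, an aspartate aminotransferase (0.992). For *Vim* they were *Cntfr*, a receptor for ciliary neurotrophic factor (0.993), and *Pabpn1*, a nuclear poly(A)-binding protein (0.970). *Cdh1* and *Vim* had a Pearson r of 0.785 with each other and *Cdh1* and *Cdh3*, neighbours on the chromosome, one of 0.504. *Cdh1* had one of 0.763 with *Epcam*, 0.739 with *Cdh2* and -0.761 with *Zeb1*. Of all pairs of tested members the strongest were *Epcam* and *Zeb1* (-0.870) and *Cdh2* and *Vim* (0.809), and the weakest *Cdh2* and *Zeb1* (-0.207). These are descriptions over 8 libraries that share treatments and replicate numbers, and no p-value is given.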
